A study of Mus musculus with 11 samples.

Results

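The genes described here are 29 genes that are widely used as markers of astrocytes or that are strongly expressed by them. They were listed by name, and their symbols were matched through the Ensembl identifiers of the count tables. All 29 were found among the 38293 genes listed, and all 29 were among the 20589 genes that had at least 10 counts in total and were tested. RNA of the whole hippocampus was sequenced from wildtype 129S6/SvEv x C57BL/6J F1 mice at 14 weeks of age, 6 of them offspring of dams on a control diet (CD, 2.3 mg folic acid per kg diet) and 5 offspring of dams on a folic acid-rich diet (FD, 40 mg folic acid per kg diet). The supplemented diet was restricted to the time before mating, and all dams received control diet from mating on. There were 3 males and 3 females among the CD offspring, and 2 males with 3 females among the FD offspring. The litter of each sequenced mouse is not given in the sources used here, so that p-values measure the spread between these mice, some of which may have shared a dam.

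Astrocytes take up the glutamate that neurons release, convert it to glutamine, buffer potassium and water through channels at their endfeet on blood vessels, and share ions and metabolites through gap junctions. They also secrete lipoproteins and matrix proteins that act on synapses, store glycogen, and bind zinc and copper with metallothioneins. In the hippocampus they ensheath excitatory synapses, and radial glia-like cells of the dentate gyrus share many of their genes. Several of the 29 genes are not confined to astrocytes, since Apoe is also made by microglia, Glul and S100b by oligodendrocytes, Vim by vascular and ependymal cells, and Mt1 and Mt2 by many cell types.

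Total counts on genes ranged from 11737554 to 44447006 per mouse, and the lowest count of any of the 29 genes in any mouse was 257 (Sox9). For genes with few counts, such as Sox9, Slc7a10 (lowest count 305) and Cldn10 (lowest count 418), counting error is part of the spread between mice. Levels are given as CPM, counts scaled to a common library size after TMM normalization. CD female 2 and FD female 2 had the lowest totals. The share of aligned reads that fell outside annotated genes was between 7.01% and 10.5% in females and between 8.95% and 11.03% in males, with medians of 8.75% and 10.4%, and CD female 2 (9.53%) and FD female 2 (10.5%) had the highest values among females. By diet this share had a median of 9.24% in CD and 10.4% in FD mice. Defining markers of neurons, oligodendrocytes, microglia and vessels were all detected, and choroid plexus markers summed to between 31.2 and 90.1 CPM. Kl alone gave 21.8 to 25.0 CPM of this sum in every mouse, so that the other choroid plexus markers spread relatively more than the sum. In bulk RNA, fewer astrocytes and less RNA of a gene per astrocyte cannot be told apart.

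The 29 genes together took 1.17% to 1.26% of the normalized counts of a mouse. Genes were compared per kilobase of merged exons, which join the exons of all annotated transcripts of a gene. This scale is rough. The merged exons of Mt1 covered its whole span of 1246 bp, so that its level per kb may be too low. The mean level over the 11 mice was lowest for Sox9, a transcription factor of astrocytes, at 5.67 CPM per kb. It was highest for Sparcl1, a secreted matrix protein that promotes synapse formation, at 671 CPM per kb. Apoe, the main lipoprotein component of the brain, followed with 451 CPM per kb, and Glul, the enzyme that makes glutamine from glutamate, with 336 CPM per kb. The next group held Mt3 (248 CPM per kb), the chaperone clusterin (Clu, 227 CPM per kb), the glutamate transporter Slc1a2 (223 CPM per kb) and the glycolytic enzyme Aldoc (211 CPM per kb), whose ranges over mice overlapped. Mt2 (125 CPM per kb), Atp1b2 (98.2 CPM per kb), Mt1 (91.7 CPM per kb), the second glutamate transporter Slc1a3 (86.1 CPM per kb), Gfap (84.9 CPM per kb), S100b (77.1 CPM per kb) and Mlc1 (69.5 CPM per kb) formed a middle group, in which neighbours in this order overlapped over mice. The other genes lay below 40 CPM per kb, and Vim (7.5 CPM per kb), an intermediate filament gene, stood just above Sox9.

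**Figure D1:**
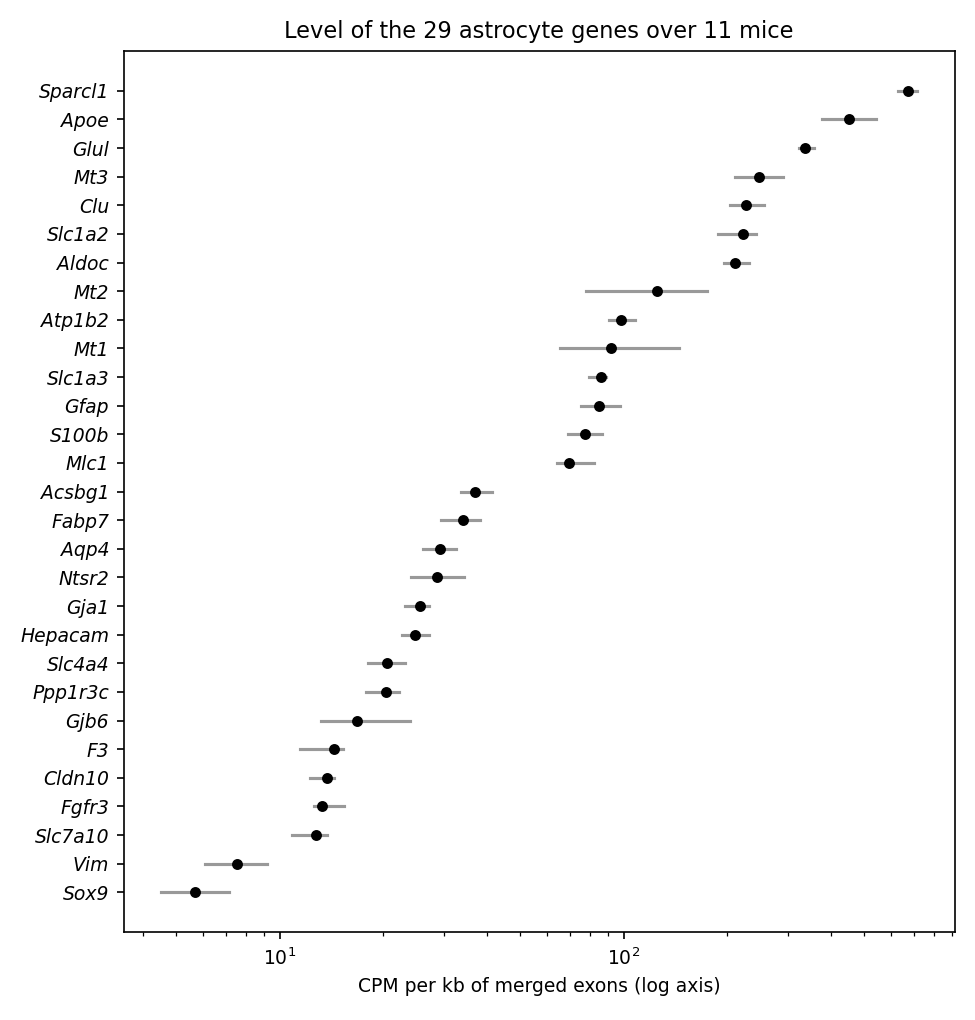
Mean level of each of the 29 astrocyte genes over the 11 mice in CPM per kb of merged exons on a log axis (points), with the range from the lowest to the highest mouse (lines). Sparcl1 is highest at 671 CPM per kb and Sox9 lowest at 5.67 CPM per kb, and the lines of Mt1, Mt2 and Gjb6 are long compared with those of their neighbours.

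Most of the genes varied little between mice. The standard deviation (SD) of log2 CPM over the 11 mice had a median of 0.11 over the 29 genes, against 0.098 for the 7278 genes with a mean at or above that of Sox9 (23.4 CPM), and 11 of the 29 lay below that median. The steadiest were Glul (SD 0.044), which ranged from 1075 to 1192 CPM, Slc1a3 (SD 0.047), from 677 to 762 CPM, and Sparcl1 (SD 0.053), from 1848 to 2095 CPM. These genes had at least 8674 counts in every mouse, so that counting error added little to their spread. They encode glutamine synthesis, glutamate uptake and a synapse-promoting matrix protein. At the other end stood Mt1 (SD 0.35) and Mt2 (SD 0.33), which differed 2.21-fold and 2.24-fold between the highest and the lowest mouse, followed by Gjb6 (SD 0.22), a gap junction protein gene with a 1.82-fold range, and Sox9 (SD 0.19) with a 1.57-fold range.

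**Figure D2:**
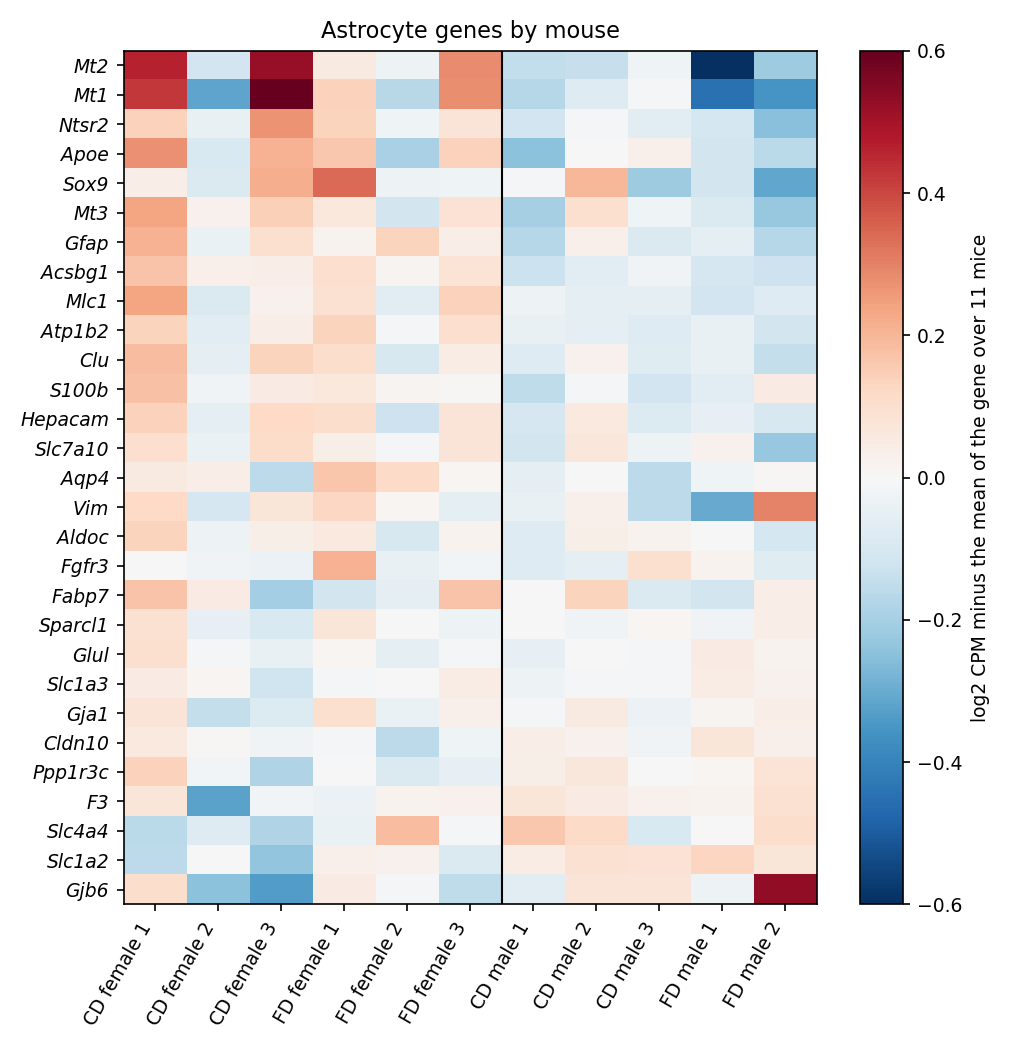
Log2 CPM of the 29 genes (rows, ordered by the difference between the sexes) in each of the 11 mice (columns, females left of the line), minus the mean of the gene over all mice. Mt2 and Mt1 in the top rows span the widest colours, with their highest values in CD female 1 and CD female 3, and Gjb6 in the bottom row stands out in FD male 2.

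Metallothioneins are small cysteine-rich proteins that bind zinc and copper. Mt1 and Mt2 are induced by metals through MTF-1, which binds metal response elements, and by glucocorticoids, whereas Mt3 is a brain form that is little induced by either. The genes lie next to each other on the plus strand of chromosome 8 (GRCm38), Mt3 at chr8:94152607-94154146, Mt2 at chr8:94172664-94173568 and Mt1 at chr8:94179082-94180327, with 18517 bp between Mt3 and Mt2 and 5513 bp between Mt2 and Mt1. Because Mt1 and Mt2 varied most of all 29 genes, and together, the 250 bases before the RefSeq start of each metallothionein gene are shown 5′ to 3′ on the plus strand (RefSeq, GRCm38.p6: Mt1 chr8:94178839-94179088, Mt2 chr8:94172368-94172617, Mt3 chr8:94152357-94152606). Capitals mark the core of the metal response element, searched as TGCACNC or TGCGCNC on both strands, where a match on the minus strand appears as its reverse complement.
Mt1: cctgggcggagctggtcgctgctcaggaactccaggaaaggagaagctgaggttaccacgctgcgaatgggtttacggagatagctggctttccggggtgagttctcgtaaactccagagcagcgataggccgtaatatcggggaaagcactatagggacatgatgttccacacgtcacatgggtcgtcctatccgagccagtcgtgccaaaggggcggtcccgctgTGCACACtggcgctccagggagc
Mt2: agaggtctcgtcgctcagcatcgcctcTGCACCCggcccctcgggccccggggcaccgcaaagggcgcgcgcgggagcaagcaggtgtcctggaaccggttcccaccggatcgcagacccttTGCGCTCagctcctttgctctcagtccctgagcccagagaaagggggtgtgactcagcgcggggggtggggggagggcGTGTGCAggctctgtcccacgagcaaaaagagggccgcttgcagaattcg
Mt3: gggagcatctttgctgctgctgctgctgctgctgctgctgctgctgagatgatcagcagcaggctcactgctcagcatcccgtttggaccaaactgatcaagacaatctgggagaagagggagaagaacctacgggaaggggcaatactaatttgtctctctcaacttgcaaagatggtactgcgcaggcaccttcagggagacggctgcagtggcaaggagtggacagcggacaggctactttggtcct

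The Mt1 window held 1 core, with 16 bases between it and the start, the Mt2 window held 3, 2 on the plus and 1 on the minus strand, and the Mt3 window held 0. Of all 32851 promoter windows of this length, 21.4% held at least 1 core and 1.26% held at least 3. With the next 50 bases after the start included, the counts were 3 for Mt1, 4 for Mt2 and 1 for Mt3, and 1.97%, 0.517% and 25.7% of all such windows held at least as many. The count of Mt1 thus depended on where its window ended. Whether transcription of these genes begins at the RefSeq start was not tested, so that the windows may miss part of their promoters. The half-site of the glucocorticoid response element, searched as TGTTCT on both strands, was in 0 of these 3 windows of 250 bases and in 16.1% of all windows. A match is only a run of letters, and its absence from these windows says nothing of sites further away.

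In CD males Mt1 was at 98.7, 105 and 110 CPM, and in CD females at 149, 89.1 and 180 CPM. In FD females Mt1 was at 122, 99.0 and 135 CPM, and in FD males at 81.5 and 87.0 CPM. The 4 highest mice were therefore all females, and the other 2 females, CD female 2 and FD female 2, lay within the range of the males. Mt2 was at 64.7, 65.1 and 70.5 CPM in CD males and at 98.9, 66.3 and 103 CPM in CD females. In FD females Mt2 was at 74.3, 70.3 and 87.3 CPM, and in FD males at 45.8 and 61.8 CPM. Over the 11 mice the log2 levels of Mt1 and Mt2 rose and fell together, with Pearson's r = 0.932 and Spearman's rho = 0.955 (permutation test, p = 2e-05 for each, the smallest that the 100000 resamples can give, and 0.0001 after adjustment over 5 pairs). Without the 2 mice farthest from the median of Mt1, CD female 1 and CD female 3, r was 0.864 (permutation p = 0.00024), and with the means of diet and sex removed it was 0.883 (permutation p = 0.00068).

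Mt3 ranged only from 225 to 310 CPM. It had r = 0.758 and rho = 0.80 with Mt1 (permutation p = 0.00608 and 0.00466, adjusted 0.0152 and 0.0117), which became r = 0.614 without CD female 1 and CD female 3 (permutation p = 0.0755) and 0.533 with the means of diet and sex removed (permutation p = 0.10). With Mt2 it had r = 0.70 and rho = 0.755 (permutation p = 0.0155 and 0.00948, adjusted 0.0258 and 0.0158), r = 0.756 without CD female 3 and FD male 1 (permutation p = 0.0112), and r = 0.311 with the means of diet and sex removed (permutation p = 0.35). So only for the pair of Mt1 and Mt2 did the relation between mice of the same diet and sex pass its test.

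**Figure D3:**
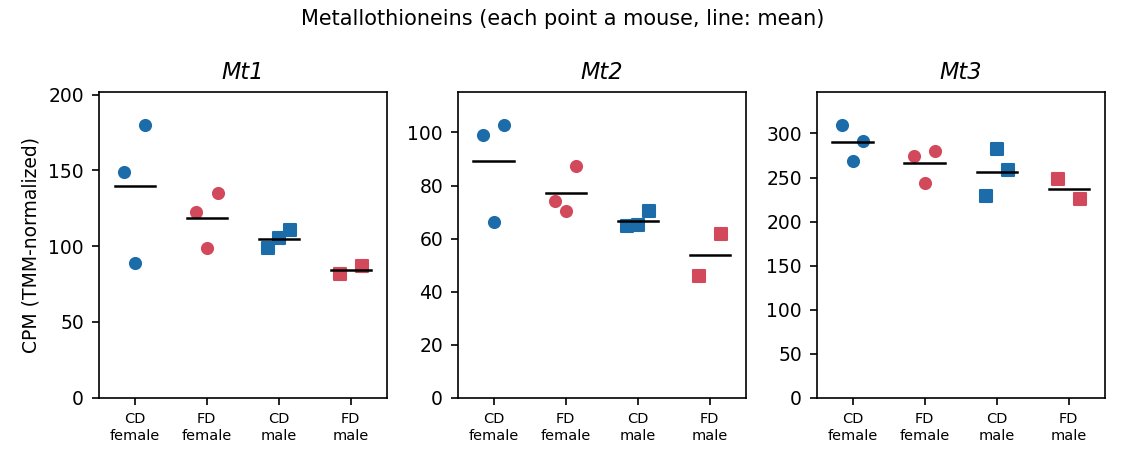
TMM-normalized CPM of Mt1, Mt2 and Mt3 in each mouse (points, blue for CD and red for FD, circles for females and squares for males), with the mean of each diet and sex as a line. In Mt1 and Mt2 the highest points are CD females at 180 and 103 CPM, and 1 CD and 1 FD female lie among the males.

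Of the other pairs compared, the gap junction genes Gja1 and Gjb6 had r = 0.585 and rho = 0.682 over mice (permutation p = 0.0424 and 0.0265, adjusted 0.0529 and 0.0331). Without CD female 2 and CD female 3 r fell to 0.228, so that this relation rested on those mice. The glutamate transporters Slc1a2 and Slc1a3 had r = 0.376 and rho = -0.082 (permutation p = 0.302 and 0.818), and r was -0.226 without CD female 1 and CD female 3, so that no shared variation between mice was found for them.

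The comparison of FD with CD mice asks whether hippocampal gene expression of the offspring differed with the maternal diet before conception. None of the 29 astrocyte genes passed the threshold between FD and CD mice. The count was 0 of 29 with edgeR's quasi-likelihood test (Benjamini-Hochberg adjusted p below 0.1 over all genes tested) and 0 of 29 with DESeq2, where 0.0680% of all genes tested passed in edgeR (14 genes, all higher in FD). At an unadjusted p below 0.05 the count was also 0 of 29 with both tools, against 2.59% of all genes tested in edgeR. With sex as a covariate in edgeR it was 2 of 29, against 942 of 20589 genes tested, and 0 of 29 passed the threshold. The log2 fold changes of FD against CD ran from -0.21 for Mt1 to 0.14 for Gjb6, with 13 above and 16 below 0 and 24 within 0.1 of it, and their median was -0.013 against -0.0040 over all genes tested. The diet groups overlapped in all 29 genes, whereas 0.505% of all genes tested had groups that did not overlap. With mice of the same sex and replicate number taken as pairs (replicate block), which leaves out the unpaired CD male 3, 23 genes passed (19 higher and 4 lower in FD), against 4 in the same 10 mice without the block, and in both fits 0 of the 29. In the fit of all mice with no covariate, the standard errors (SE) of the 29 log2 fold changes ran from 0.043 to 0.17 with a median of 0.063. None of the 29 log2 fold changes reached 2 times its SE there, and those between 1 and 2 times their SE did not pass. Of the marker lists of other cell types, 0 genes passed between the diets with edgeR, and 1 gene each of the choroid plexus, meningeal and progenitor lists had an unadjusted p below 0.05.

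**Figure D4:**
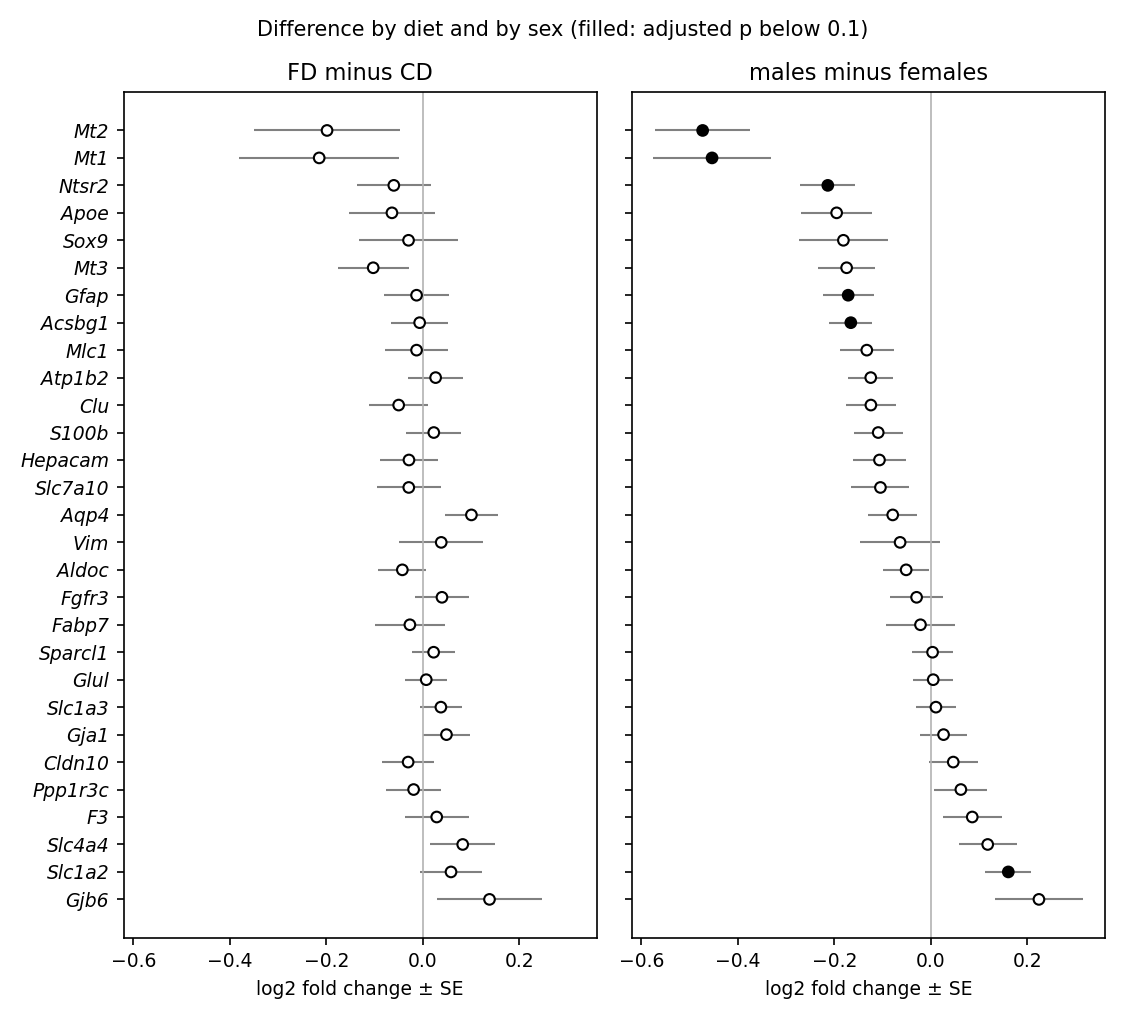
Log2 fold change with its SE for FD minus CD (left) and for males minus females (right) of the 29 genes, from edgeR, with filled points for an adjusted p below 0.1. On the left all points are open and lie between -0.21 and 0.14, and on the right 6 are filled, 5 of them left of 0.

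Among the genes of water, ion and gap junction transport, Aqp4, the water channel of astrocyte endfeet, had the smallest p of the 29. Aqp4 was at 175, 181 and 163 CPM in CD males, at 189, 187 and 163 CPM in CD females, at 178 and 183 CPM in FD males and at 204, 197 and 183 CPM in FD females. Its 2 lowest mice were CD and its 2 highest FD, but the groups overlapped, and the log2 fold change of 0.10 (SE 0.055) had an edgeR p of 0.083 and an adjusted p of 1. Gjb6 was at 42.7 ± 5.35 CPM in CD (SD, n = 6) and at 47.4 ± 9.55 CPM in FD mice (SD, n = 5), a log2 fold change of 0.14 (SE 0.11, edgeR adjusted p = 1). The FD mean of Gjb6 rested on FD male 2 at 64.1 CPM, since the other 4 FD mice lay between 39.9 and 45.9 CPM, and without FD male 2 the log2 fold change was 0.015. Slc4a4, the sodium bicarbonate cotransporter, had a log2 fold change of 0.083 (SE 0.068) and Gja1, the main astrocyte connexin gene, one of 0.049 (SE 0.049). Atp1b2 (398 ± 23.7 CPM in CD and 405 ± 28.6 CPM in FD), a subunit of the sodium pump, and Mlc1 (196 ± 17.2 and 194 ± 15.3 CPM) and Hepacam (83.7 ± 6.09 and 81.9 ± 5.86 CPM), whose products form an adhesion complex at endfeet, had means closer than their SDs.

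Of the genes for transmitter uptake, Slc1a2 ranged from 2473 to 3103 CPM with a median of 2968 CPM in CD mice, and was at 2982, 3186, 2967, 3064 and 2751 CPM in FD mice. The lowest mice were 2 CD females, and its log2 fold change was 0.059 (SE 0.063). Slc1a3 was at 727 ± 28.1 CPM in CD (SD, n = 6) and 746 ± 12.8 CPM in FD mice (SD, n = 5), Glul at 1114 ± 40.7 and 1120 ± 29.6 CPM, and Slc7a10, a transporter of D-serine and other small amino acids, at 27.1 ± 1.67 and 26.5 ± 2.11 CPM. Gfap, the filament protein that increases in reactive astrocytes, ranged from 317 to 412 CPM with a median of 356 CPM in CD mice, and was at 362, 343, 391, 317 and 367 CPM in FD mice. The ranges of Gfap nearly coincided, and its log2 fold change was -0.013 (SE 0.068). S100b, a calcium-binding protein gene, was at 114 ± 9.37 and 115 ± 4.09 CPM and Vim at 35.1 ± 2.56 and 36.1 ± 5.49 CPM.

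The 3 metallothionein genes had the lowest log2 fold changes of FD against CD among the 29, with -0.21 (SE 0.17) for Mt1, -0.20 (SE 0.15) for Mt2 and -0.10 (SE 0.074) for Mt3 (edgeR, unadjusted p = 0.213, 0.21 and 0.183, adjusted p = 1 for each). In the fit with the replicate block their unadjusted p was 0.00141, 0.00188 and 0.042, with adjusted p of 0.325, 0.365 and 0.723, so that they did not pass in either fit. With 1 mouse left out, the log2 fold change of Mt1 lay between -0.074 (without CD female 3) and -0.32 (without FD female 3), that of Mt2 between -0.084 (without FD male 1) and -0.31 (without FD female 3), and that of Mt3 between -0.059 (without FD male 2) and -0.15 (without CD male 1). Genes of energy and lipid metabolism differed less. Aldoc was at 698 ± 34.0 CPM in CD (SD, n = 6) and 678 ± 34.8 CPM in FD mice (SD, n = 5), Acsbg1, an acyl-CoA synthetase gene, at 134 ± 9.61 and 133 ± 9.43 CPM, Ppp1r3c, a glycogen-targeting phosphatase subunit, at 55.7 ± 4.04 and 55.0 ± 2.48 CPM, and Fabp7, the brain fatty acid-binding protein gene, at 42.9 ± 4.07 and 42.1 ± 3.60 CPM. The secreted proteins were at 984 ± 130 and 941 ± 113 CPM for Apoe, 791 ± 63.1 and 764 ± 54.2 CPM for Clu and 1956 ± 83.5 and 1987 ± 60.5 CPM for Sparcl1, and the tight junction gene Cldn10 was at 35.9 ± 0.796 and 35.1 ± 2.09 CPM. Sox9 was at 23.8 ± 2.72 and 23.1 ± 3.92 CPM, the growth factor receptor gene Fgfr3 at 94.1 ± 4.03 and 96.7 ± 7.81 CPM, the neurotensin receptor gene Ntsr2 at 91.5 ± 9.52 and 87.5 ± 9.07 CPM, and F3, which encodes tissue factor, at 35.9 ± 3.48 and 36.8 ± 1.14 CPM. All these differences lay within 1 SD of the CD mice.

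The sexes differed more than the diets in these genes, but the calls depended on single mice. With diet as a covariate, 6 of the 29 genes passed the threshold between males and females in edgeR (20.7%), against 6.11% of all genes tested and 11.1% of the 7278 genes at or above the level of Sox9. Of the 6, 5 were lower in males (Gfap, Ntsr2, Acsbg1, Mt1 and Mt2), against 3.03% of all genes tested, and Slc1a2 was higher. At an unadjusted p below 0.05 the count was 13 of 29 (44.8%, 11 lower and 2 higher in males), against 20.3% of all genes tested and 31.7% of those at or above the level of Sox9, so that many genes of this level moved with sex in these libraries. The median log2 fold change of males against females was -0.079 over the 29 and -0.0045 over all genes tested.

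Slc1a2, the main glutamate transporter, was at 3012, 3103, 3102, 3186 and 3064 CPM in males and between 2473 and 2982 CPM in females, with a median of 2838 CPM. All males lay above all females, and the log2 fold change was 0.16 (SE 0.048, edgeR adjusted p = 0.0899). Acsbg1 was at 122, 127, 131, 124 and 122 CPM in males and between 135 and 149 CPM in females, with a median of 139 CPM, again with no overlap (log2 fold change -0.17, SE 0.045, edgeR adjusted p = 0.0754). These were the only 2 of the 29 genes whose sexes did not overlap, where 1.78% of all genes tested had none. Gfap was at 317, 364, 336, 343 and 317 CPM in males and between 347 and 412 CPM in females, with a median of 374 CPM, and only CD male 2 lay above the lowest female (log2 fold change -0.17, SE 0.053, edgeR adjusted p = 0.0932). Ntsr2 was at 82.5, 88.7, 85.2, 82.9 and 75.0 CPM in males and between 86.6 and 108 CPM in females, with a median of 96.1 CPM, and CD male 2 alone lay above the lowest females (log2 fold change -0.21, SE 0.057, edgeR adjusted p = 0.0733). For Mt1 the log2 fold change was -0.45 (SE 0.12, edgeR adjusted p = 0.0747) and for Mt2 -0.47 (SE 0.099, edgeR adjusted p = 0.0613), the largest of the 29.

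**Figure D5:**
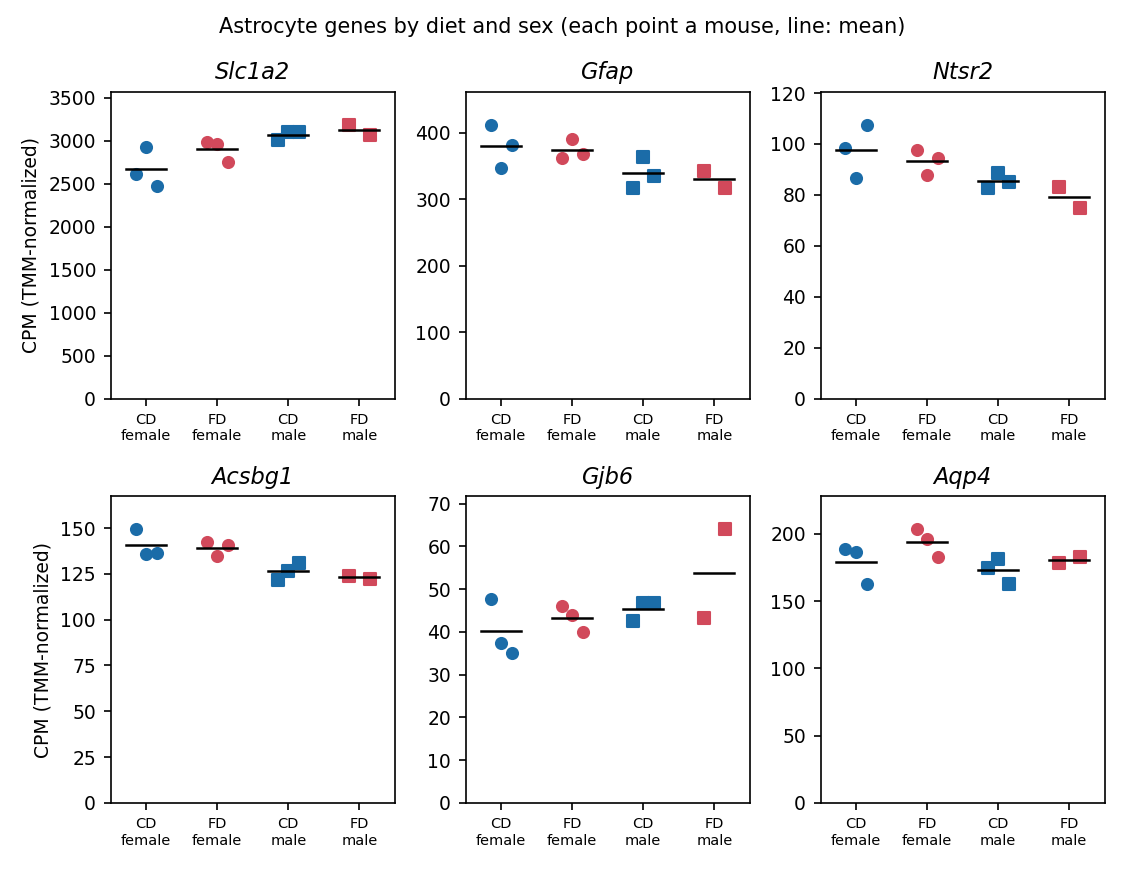
TMM-normalized CPM of Slc1a2, Gfap, Ntsr2, Acsbg1, Gjb6 and Aqp4 in each mouse (points, blue for CD and red for FD, circles for females and squares for males), with the mean of each diet and sex as a line. Males lie above all females in Slc1a2 and below all females in Acsbg1, and FD male 2 stands alone in Gjb6 at 64.1 CPM.

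Mt3 (log2 fold change -0.17, SE 0.059, edgeR adjusted p = 0.114) and Atp1b2 (-0.12, SE 0.047, adjusted p = 0.143) did not pass, nor did Aqp4 (-0.079, SE 0.051, adjusted p = 0.411). Gjb6 had a log2 fold change of 0.22 (SE 0.092, edgeR adjusted p = 0.177), which was 0.11 without FD male 2. Apoe was at 1021 ± 125 CPM in females (SD, n = 6) and 897 ± 70.5 CPM in males (SD, n = 5), with an adjusted p of 0.149. Glul, Slc1a3 and Sparcl1, the steadiest genes, had log2 fold changes of 0.0050, 0.011 and 0.0037.

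The number of astrocyte genes called between the sexes was 0 of 29 when CD male 1, CD female 1, CD male 2, CD female 3, FD male 2 or FD female 3 was left out, 1 without CD male 3 or FD female 1 and 2 without FD male 1. Without CD female 2 or FD female 2, the females with the lowest depth and the highest shares of reads outside genes, it was 11 and 10. In these fits 3244 of 20496 and 2762 of 20459 genes tested passed. Over all genes 18 to 47 passed in the fits with 0 of the 29. Without CD male 3, FD female 1 and FD male 1 the counts over all genes were 363, 142 and 590. Without the diet covariate 0 of 29 passed, with 13 of 29 still at an unadjusted p below 0.05, against 3837 of 20589 genes tested. With the share of reads outside genes as a further covariate, an alternative added after seeing the data, 0 of 29 passed. Over all genes 9 passed in place of 1257. An unadjusted p below 0.05 was found in 6 of 29, against 1541 of 20589 genes tested. The log2 fold change under this covariate was -0.18 (SE 0.065) for Gfap, -0.18 (SE 0.071) for Ntsr2, -0.13 (SE 0.052) for Acsbg1, 0.11 (SE 0.055) for Slc1a2, -0.28 (SE 0.15) for Mt1 and -0.33 (SE 0.12) for Mt2. Gfap thus kept its size with a larger SE, while Ntsr2, Acsbg1, Slc1a2, Mt1 and Mt2 all moved closer to 0. The direction of all 6 called genes was the same in every one of these fits.

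Some markers of other cells also differed between the sexes, and their counts are to be read against the 20.3% of all genes tested, and 31.7% of those at or above the level of Sox9, with an unadjusted p below 0.05. Of the lists of other cell types, oligodendrocyte markers had an unadjusted p below 0.05 in 4 of 6 genes, and summed to between 3979 and 6238 CPM in females and between 3885 and 4858 CPM in males. Ependymal markers had it in 4 of 4, with Foxj1 lower in males (log2 fold change -0.45, SE 0.12, edgeR adjusted p = 0.0715), and summed to between 13.9 and 20.9 CPM in females and between 13.0 and 16.8 CPM in males. Neuron markers had it in 4 of 8, with Tubb3 lower, microglia markers in 2 of 6, with C1qa lower, neural stem and progenitor cell markers in 3 of 6, with 0 called, meningeal markers in 1 of 6, with Ogn higher in males, endothelial and mural markers in 2 of 8 and choroid plexus markers in 1 of 8, with 0 called. The counts of the microglia, endothelial, meningeal and choroid plexus lists were near or below the share over all genes. Ogn was at 24.8 CPM in FD male 2 and at most at 11.7 CPM in the other mice, and its log2 fold change of 0.52 became 0.23 without FD male 2 (SE 0.11, edgeR adjusted p = 0.28). With 1 mouse left out, each of these lists had 0 called in at least 7 of the 11 fits. All of these markers had enough counts to be tested, and their part in the sex differences of the astrocyte genes was not tested.

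The effect of diet did not detectably depend on sex in these genes. In the test of the interaction 0 of the 29 genes and 0 of all genes tested passed with edgeR, and likewise with DESeq2. At an unadjusted p below 0.05 the count was 0 of 29 with both tools, against 1.90% of all genes tested in edgeR (391 genes). The smallest unadjusted edgeR p of the 29 was 0.114, for Slc4a4, and the interaction terms ran from -0.24 to 0.14 on the log2 scale. With only 2 FD males, this comparison was the least precise.

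Further astrocyte genes outside the 29 were looked at in the same fits. Of 26 such genes, 0 passed between FD and CD (median log2 fold change 0.0058, 0 at an unadjusted p below 0.05), and 4 passed between the sexes, all lower in males (median -0.074, 11 at an unadjusted p below 0.05), where 6.11% of all genes tested and 11.1% of those at or above the level of Sox9 passed and 20.3% and 31.7% had such a p. With 1 mouse left out, 0 to 8 of the 26 passed, and 0 in 7 of the 11 fits. The 4 were Gpr37l1, an orphan receptor gene (log2 fold change -0.26, SE 0.063, edgeR adjusted p = 0.0641), Gstm1, a glutathione transferase gene (-0.20, SE 0.049, adjusted p = 0.0668), Mfge8, a secreted bridging protein for phagocytosis (-0.21, SE 0.064, adjusted p = 0.0932), and Lcat, the enzyme that esterifies lipoprotein cholesterol (-0.23, SE 0.071, adjusted p = 0.0963). Aldh1l1, a folate enzyme gene that is a common astrocyte marker, had a log2 fold change of 0.0025 for FD against CD and -0.22 (SE 0.074, adjusted p = 0.109) for males against females.

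Of 11 genes known from reactive astrocytes 10 were tested, Lcn2 having too few counts. None of the 10 passed between the diets with edgeR (0 at an unadjusted p below 0.05, median log2 fold change 0.099). That median is rough, since it lay between Timp1 (0.089) and Hspb1 (0.11), with only 35 and 156 counts in total over all mice. Steap4 and Cxcl10 had 46 and 43 counts in total. Osmr, a cytokine receptor gene, was higher in males (0.36, SE 0.11, edgeR adjusted p = 0.0951). With 1 mouse left out, 0 to 2 of the 10 passed between the sexes, and 0 in 9 of the 11 fits. Of 10 genes that respond to glucocorticoids or zinc, which also induce Mt1 and Mt2, 0 passed between the diets (0 at an unadjusted p below 0.05). Between the sexes 3 of the 10 passed, the kinase gene Sgk1 (0.40, SE 0.11, adjusted p = 0.084), the lipid droplet gene Plin4 (0.82, SE 0.20, adjusted p = 0.0641) and the sulfotransferase gene Sult1a1 (0.59, SE 0.15, adjusted p = 0.0668), and all 3 were higher in males, against 6.11% of all genes tested that passed in either direction. All 3 had their highest mouse in FD male 2, and without it their log2 fold changes were 0.29 for Sgk1, 0.63 for Plin4 and 0.43 for Sult1a1, none of them past the threshold (edgeR adjusted p = 0.216, 0.159 and 0.164). Slc30a1, the zinc exporter gene that is induced by MTF-1, had a log2 fold change of -0.082 (SE 0.056, adjusted p = 0.439).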

How the data were processed

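Hippocampal RNA of 11 F1 mice was sequenced as single-end reads. After trimming, the authors used STAR for alignment to GRCm38 (mm10), counted unique alignments per gene, and deposited the raw counts of each mouse without normalization. Their processing notes name featureCounts, the tables end in 5 summary lines of another form, and the annotation release is not given in the sources used here. The summary lines, 24.4% to 26.9% of aligned reads, were left out of library sizes. Reads with several alignments were not counted, which can lower genes that share stretches of sequence with others. Whether Mt1 and Mt2, which belong to the same family, lost reads in this way was not tested. Strand use of the counting is not given either.

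Groups, sexes and replicate numbers came from the labels. Of 38293 Ensembl identifiers 94.9% were found in GENCODE M21, which gave symbols, positions and exon lengths. The 29 genes and all further lists were chosen with earlier results of these data known. Genes with at least 10 counts in total were tested in R 4.3.3 with edgeR 4.0.16 (TMM, quasi-likelihood test, Benjamini-Hochberg adjustment, threshold 0.1), for FD against CD with no covariate, males against females with diet as a covariate, and diet by sex. SE is the log2 fold change divided by the square root of F. A prior count of 2 was used for log2 CPM. Totals per mouse of 11737554 to 44447006 put 3 counts at 0.0675 to 0.256 CPM. The scripts were tested on simulated data. Correlations between genes over mice were tested by two-sided permutation with 100000 resamples, adjusted over 5 pairs. Promoter windows came from RefSeq. Tables and figures were made with Python 3.11.15, pandas 2.3.3, scipy 1.17.1 and matplotlib 3.10.9.

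Alternatives were DESeq2 1.42.0, its size factors (RLE) in edgeR, other count filters, sex as a covariate or no diet covariate, the replicate block and each mouse left out. The share of reads outside genes as a covariate, and leaving out both mice numbered female 2, were added after seeing the data. For the replicate block, the numbers were treated as pairing the mice. Deviations from the diet means correlated by 0.308 to 0.54 in the 5 pairs of the same sex and number. In the 10 pairs of the same sex and another number they correlated by -0.0629 to 0.525. With sex also removed the correlations were -0.088 to 0.318 (mean 0.07) and -0.392 to 0.202 (mean -0.158). Whether the mice were paired is not known. The pairing comes from the labels' numbers only.

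Log2 fold changes with tests are given for genes past the threshold, the 8 of the 29 with the smallest p by diet and by sex, and Gfap and Aqp4. Single values outside this rule (Apoe, Gjb6, Glul, Slc1a3 and Sparcl1 between the sexes, Aldh1l1 and Slc30a1) were added after seeing the data. The result of 1 further marker gene is not reported here.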

Additional observations from a re-analysis of the deposited data

Results flagged for a closer look

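Within each diet group, the highest and lowest mouse of each of the 29 genes were compared with the others by Dixon's test, in 58 groups, and chance alone flags about 1 in 20 groups. In 4 of them a mouse stood apart. Gjb6 was at 64.06 CPM in FD male 2, with the next FD mouse at 45.95 CPM. FD male 2 was also the mouse with the highest sums of meningeal markers (186 CPM), of endothelial and mural markers (356 CPM) and of the glucocorticoid- and zinc-responsive genes (533 CPM). A link of these sums to its Gjb6 level was not tested. Glul was at 1192 CPM in CD female 1, with the next CD mouse at 1115 CPM, and Mlc1 was at 229.1 CPM in the same mouse, with the next at 197.9 CPM. F3 was at 29.02 CPM in CD female 2, with the next CD mouse at 35.82 CPM.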

How the results depend on the processing

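Between FD and CD, 0 of the 29 astrocyte genes passed under every alternative run. Over all genes 14 passed, against 8 with filterByExpr, 23 with the replicate block (10 mice, without CD male 3, where 4 passed with no block), 22 with the share of reads outside genes as a covariate, 3 without both mice numbered female 2, and 3 to 12 with 1 mouse left out. The replicate block changed no call of the 29. Gfap, close to 0, turned to 0.00036 with filterByExpr, to 0.0058 with that covariate, and with 1 mouse left out ranged from -0.046 to 0.0304 (0.0304, 0.0047, 0.00067 and 0.03 without CD female 1, CD female 3, FD male 1 and FD male 2). Between the sexes 1257 genes passed, against 2043 with DESeq2, 2645 with at least 1 count, 37 without the diet covariate, 9 with the share of reads outside genes, 4563 without both mice numbered female 2, and 18 to 3244 with 1 mouse left out. For the 29 the count of 6 became 0 without the diet covariate, 0 with the share of reads outside genes, 14 without both mice numbered female 2, and 0 to 11 with 1 mouse left out (8 with DESeq2 and 9 with at least 1 count). The cause was not tested. In the interaction 0 genes passed, against 10 with at least 1 count and 0 to 1 with 1 mouse left out. For Slc1a2 and Slc1a3, r became -0.226 without the 2 mice farthest from the median. The adjusted p of the 6 genes lay between 0.0613 and 0.0932 in edgeR, close to the threshold of 0.1.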
